A study of Mus musculus with 30 samples.

Results

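The mRNAs of the translation initiation factors were taken as all genes whose symbol begins with Eif followed by a digit from 1 to 6 and is not that of a pseudogene. The rule gave 54 of the 14558 genes with an RNA level or a half-life. An RNA level was listed for 44 of them, a half-life for 43, and both for 33. All were measured in cultured mouse spermatogonial stem cells (SSCs), the cells that maintain sperm production, which were derived from testes of 7-day-old mice and grown on fibroblast feeders. Per the study's methods, RNA of both assays came from cells sorted by flow cytometry, with a gate on low light scatter that leaves out remaining feeders. The study asked how the germline RNA-binding protein NANOS2 relates to mRNA levels and stability in these cells. The *Nanos2* TAG/+ line (line 4) carried 1 *Nanos2* allele with an epitope and EGFP tag, and the *Nanos2* TAG/TAG line (line 5) carried the tagged allele in homozygous form. Both lines therefore express tagged NANOS2, no line without NANOS2 was measured here, and each genotype is a single line. RNA-seq was performed on 1 library per line, with RNA extracted in QIAzol for the TAG/+ line and in Trizol for the TAG/TAG line. Genotype, line and reagent cannot be told apart in the RNA levels. SLAM-seq, in which 4-thiouridine marks newly made RNA and its loss is followed in a chase without the label, was performed on 12 libraries per line at 6 chase times from 0 to 1440 min. The half-lives are 1 value per line for each transcript, without an error of the fit, so the difference between the lines is the only measure of spread. No test between the lines was possible for either measurement.

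Translation of most mRNAs begins when the cap-binding complex eIF4F (eIF4E, the scaffold eIF4G and the helicase eIF4A) loads a small ribosomal subunit that already carries eIF1, eIF1A, eIF3, eIF5 and the eIF2 complex with initiator tRNA. The small subunit then scans to a start codon, where eIF5B joins the large subunit. Control is exerted mainly at eIF2, whose alpha subunit is phosphorylated by stress kinases so that its exchange factor eIF2B is blocked, and at eIF4E, which is held by binding proteins until mTOR signaling releases it.

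Matches to the consensus given for NANOS2, spelled out as AUGAAAU or AUGAAUU and their variants AUUAAAU or AUUAAUU, were counted on the sense strand of 3′ untranslated regions (UTRs). Of the 43 initiation factor mRNAs with a half-life, 12 (27.9%) had at least 1 match in the annotated 3′ UTR (GENCODE M21, GRCm38), against 41.9% of 5754 transcripts with a half-life and a 3′ UTR of at least 10 nucleotides. The 3′ UTRs of the initiation factors were also shorter, with a median of 639 nucleotides against 1219. The mRNAs with a single match are shown because they differ in stability, with mean half-lives of the lines from 156 min for *Eif4e2* to 508 min for *Eif3f*, and the motif is in capitals. For these, all 4 matches lie in the last exon.
*Eif3a* (chr19:60761721-60761747, minus strand): aguaucagauAUUAAUUuggaauaagg
*Eif3f* (chr7:108942387-108942413, plus strand): agagacaaguAUGAAUUgaugguauua
*Eif4e2* (chr1:87228237-87228263, plus strand): guggucugacAUUAAAUaaugagguga
*Eif4g1* (chr16:20692860-20692884, plus strand): auuauuaaacAUGAAUUcaauuaag
The shortest-lived member, *Eif4a2*, had no such match. Its 3′ UTR of 636 nucleotides had 4 copies of AUUUA, the core of AU-rich elements. At least 1 copy was found in 72.6% of all 3′ UTRs and in 60.5% of those of members. Members with AUUUA had a median of the mean half-lives of 282 min, against 298 min for those without. The long-lived *Eif1ax* (472 and 527 min) had 7 copies. The first and the last copy in *Eif4a2* are shown with AUUUA in capitals.
*Eif4a2*, first (chr16:23113560-23113584, plus strand): uuagaaauucAUUUAcuaguuaugu
*Eif4a2*, last (chr16:23113790-23113814, plus strand): ucaauaaaguAUUUAauuagugcua
These are sequence matches and not measured binding sites. From crosslinking, the study named *Eif2s1*, *Eif3e* and *Eif3f* among its NANOS2 targets, and of these only *Eif3f* had a match.

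By their medians, initiation factor mRNAs were longer lived than the transcripts of these cells as a whole. Their median half-life was 282 min in the TAG/+ line and 286 min in the TAG/TAG line, against 224 and 226 min for all 5806 transcripts. Both half-lives lay above the medians of all transcripts for 32 of the 43 members (74.4%), against 39.8% of all transcripts. For 7 members both half-lives were below the medians, and for 4 the lines fell on different sides. The range was wide, from 115 to 646 min in the TAG/+ line and from 91.5 to 768 min in the TAG/TAG line. Half-life and RNA level were related, as they were across all transcripts. Spearman's rho between mean half-life and mean FPKM (reads scaled to transcript length and library depth) was 0.47 over the 33 members with both and 0.51 over 5152 transcripts, where genes are not independent and share the same libraries. Initiation factors were abundant, with a median FPKM of 69.7 in the TAG/+ line and 64.7 in the TAG/TAG line, against 10.2 and 10.5 for all 13904 genes. Among transcripts with a mean FPKM of at least 50, both half-lives were above the medians for 64.1%, and for 19 of the 21 members in that range.

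**Figure D1:**
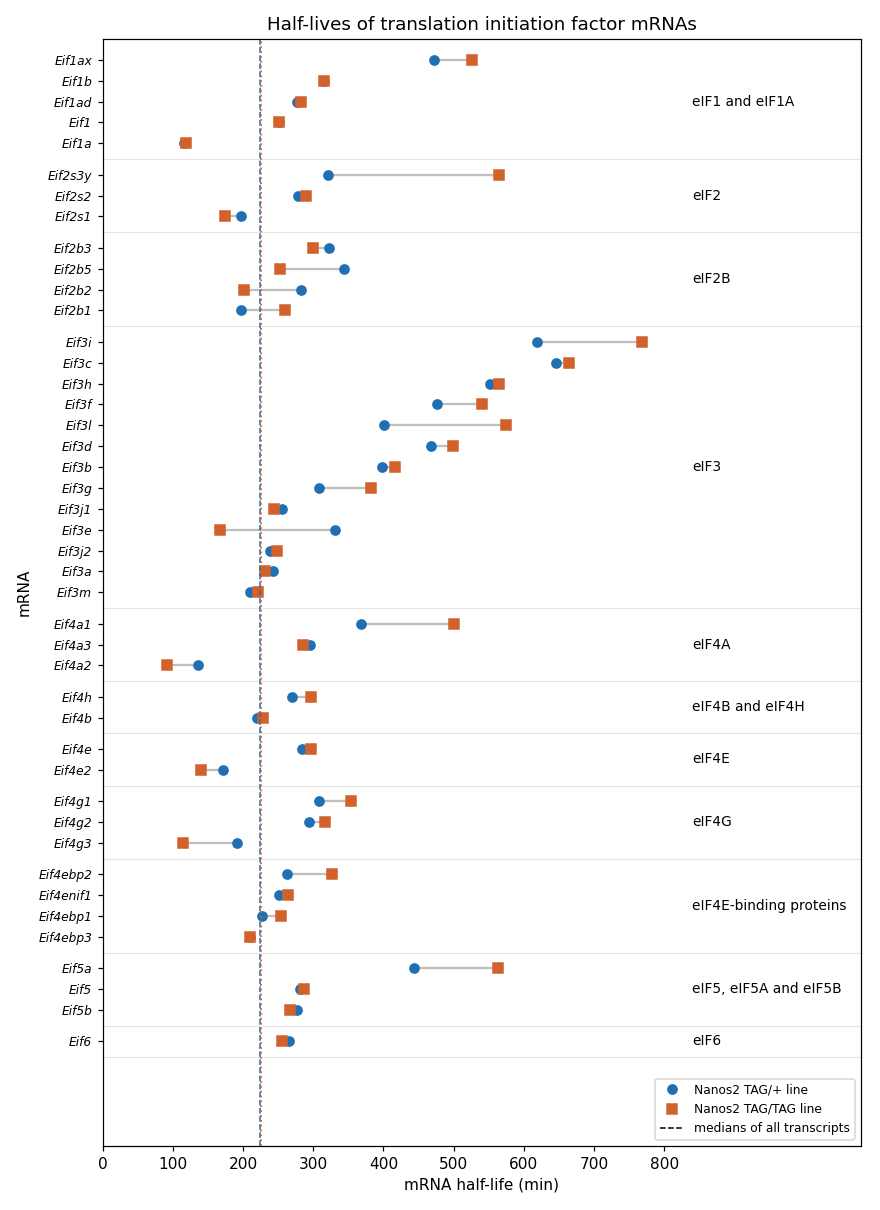
Half-life in min (x axis) of the 43 initiation factor mRNAs (y axis), grouped by complex, with a circle for the TAG/+ line, a square for the TAG/TAG line, a grey bar joining them and vertical lines at the medians of all transcripts (224 and 226 min). The eIF3 mRNAs reach from 167 to 768 min, and *Eif4a2*, *Eif1a*, *Eif4e2*, *Eif4g3* and *Eif2s1* lie left of the medians in both lines.

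eIF3, the largest factor, which holds the small subunit open and recruits mRNA, held the 3 longest-lived members and also some close to the median of all transcripts. Its 13 mRNAs with a half-life had a median of 399 min in the TAG/+ line and 416 min in the TAG/TAG line, and 11 of them were above the medians of all transcripts in both lines. The longest half-life of a subunit was 3.08 times the shortest in the TAG/+ line and 4.61 times in the TAG/TAG line. The order of the subunits was similar in the lines, with a Spearman's rho of 0.86 over the 13 mRNAs. Neighbours in that order overlapped in 6 of 12 pairs.

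The subunits *Eif3b*, *Eif3g* and *Eif3i* form a module at the rim of the complex. *Eif3i*, a WD40-repeat protein (chr4:129591960-129600648), had half-lives of 618 min in the TAG/+ line and 768 min in the TAG/TAG line, the longest mean of the family. For *Eif3b*, the scaffold of the module, the values were 399 and 416 min in the same order. The half-lives of *Eif3g*, an RNA-binding subunit, were 308 and 383 min. All 3 mRNAs were above the medians in both lines, and their ranges did not overlap.

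The core of eIF3 is built by subunits with PCI domains (*Eif3a*, *Eif3c*, *Eif3e*, *Eif3k*, *Eif3l* and *Eif3m*) and MPN domains (*Eif3f* and *Eif3h*). Their mRNAs did not share a half-life. *Eif3c* had 646 and 665 min, which overlapped with *Eif3i*. Both MPN subunits were close to each other, with 551 and 565 min for *Eif3h* beside 476 and 540.4 min for *Eif3f*. *Eif3l* had 400.2 and 575 min, and its range covered all of that of *Eif3f*. At the other end, *Eif3a*, the largest scaffold subunit, had 243 and 231 min, and *Eif3m* had 209.6 and 221 min, which was below the medians in both lines. *Eif3e* (chr15:43250058-43282719) differed most between the lines of all eIF3 subunits, with 331 min in the TAG/+ line and 167 min in the TAG/TAG line, a 1.99-fold difference. No half-life was listed for *Eif3k*.

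Outside this core, *Eif3d*, which can bind caps directly, had 468 and 499 min. *Eif3j*, a loosely attached subunit, is encoded by *Eif3j1* and the near-identical copy *Eif3j2*. Their half-lives of 256 and 244 min and of 238 and 248 min overlapped, and 94.0% of the 31-base words of *Eif3j2* occur in *Eif3j1*, so reads of the copies are hard to tell apart. Long half-lives in eIF3 went with short 3′ UTRs only in part. The 3′ UTR was 93 nucleotides long in *Eif3i*, 170 in *Eif3h*, 166 in *Eif3l* and 111 in *Eif3d*, but also 65 in *Eif3m* and 141 in *Eif3e*, and it was 1413 in *Eif3f*. The 4 eIF3 mRNAs with a NANOS2 motif match were *Eif3a*, *Eif3f*, *Eif3j1* and *Eif3j2*. Their mean half-lives had a median of 246 min, against 483 min for the other 9. The lower median lies between *Eif3j1* (250 min) and *Eif3j2* (243 min), whose reads are hard to tell apart. *Eif3a* was at 237 min, but *Eif3f* at 508 min was above the median of the other 9. The 4 mRNAs with a match had 3′ UTRs of 964 to 4500 nucleotides, and the other 9 of at most 543. The eIF3 mRNAs with and without AUUUA had the same medians, 246 and 483 min. *Eif3j1* and *Eif3j2* again set the lower median, and *Eif3c*, which has AUUUA, was at 655 min. The part of 3′ UTR length in these differences was not tested.

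**Figure D2:**
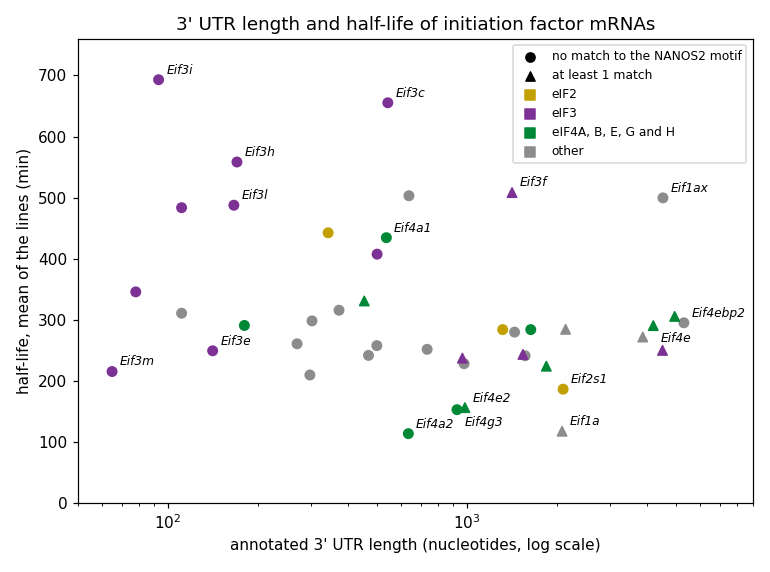
Annotated 3′ UTR length in nucleotides (x axis, log scale) and half-life in min as the mean of both lines (y axis) of the 43 initiation factor mRNAs, coloured by complex, with triangles for 3′ UTRs that hold at least 1 NANOS2 motif match and circles for those with none. The 12 triangles extend from 117 min for *Eif1a* to 508 min for *Eif3f*, and long 3′ UTRs are found at both 499.5 min for *Eif1ax* and 117 min for *Eif1a*.

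Over all 43 members, 3′ UTR length and mean half-life had a Spearman's rho of -0.26, close to the -0.28 over 5754 transcripts. The median of the mean half-lives was 261 min for the 12 members with a motif match and 291 min for the 31 without. Across all transcripts the corresponding medians were 195 and 244 min. *Eif4e* and *Eif3j1* had the most matches, 5 each, in 3′ UTRs of 4192 and 4500 nucleotides.

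The eIF4 mRNAs were spread around a shorter half-life than those of eIF3. The 10 mRNAs of eIF4A, eIF4B, eIF4E, eIF4G and eIF4H had medians of 277 min in the TAG/+ line and 291 min in the TAG/TAG line. In eIF4A, eIF4E and eIF4G, the gene with the shortest half-life (*Eif4a2*, *Eif4e2* and *Eif4g3*) was the same in both lines. For eIF4E only 2 genes had a half-life. Among the eIF4A helicases, *Eif4a1* had 368 and 500.2 min, whereas *Eif4a2* had 135 and 91.5 min, the shortest mean of the family, and the ranges were far apart. *Eif4a3*, a member of the exon junction complex rather than of eIF4F, had 295 and 286 min.

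Of the eIF4G scaffolds, *Eif4g1* had 307 and 354 min, and *Eif4g2*, which lacks the eIF4E-binding region, had 294 and 317 min. These ranges overlapped. *Eif4g3* (chr4:137993022-138208508) had 191 and 114 min, a 1.68-fold difference between the lines, with both values below those of its paralogs. *Eif4e*, the cap-binding subunit itself, had 284 and 296 min, and the repressive homolog *Eif4e2* had 172 and 139.9 min. *Eif4e3* had no half-life listed. The helicase cofactors *Eif4b* and *Eif4h* had 219 and 228 min and 270.3 and 297 min, respectively. The longest half-life in eIF4 was 2.73 times the shortest in the TAG/+ line and 5.47 times in the TAG/TAG line, and rho between the lines was 0.90 over the 10 mRNAs.

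The mRNAs that encode proteins holding eIF4E had half-lives from 209 to 327 min. *Eif4ebp1* had 227 and 255 min, *Eif4ebp2* had 263 and 327 min, and *Eif4ebp3* had 209 min in each line. The binding protein *Eif4enif1*, which carries eIF4E to the nucleus and to P-bodies, had 251 and 264 min. *Eif4ebp3* was the only one of these 4 below the medians in both lines, and 66.4% of its 31-base words occur in another annotated gene.

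Within eIF2, the carrier of initiator tRNA, the 3 mRNAs with a half-life did not overlap. *Eif2s1*, the alpha subunit that stress kinases phosphorylate (chr12:78861819-78887010), had 198 and 175 min, below the medians in both lines. Its 3′ UTR of 2094 nucleotides had 13 copies of AUUUA and no NANOS2 motif match. The study nevertheless showed a NANOS2 binding peak on this mRNA. *Eif2s2*, the beta subunit, had 278 and 289.7 min. The gamma subunit is encoded on both sex chromosomes, and only the Y-linked copy *Eif2s3y* had half-lives, of 320.3 and 564 min, a 1.76-fold difference. That gene was covered by few RNA-seq reads (48 in the TAG/+ library and 30 in the TAG/TAG library). Half-lives of weakly expressed transcripts were less alike between the lines in general, since they differed by more than 1.5-fold for 35.8% of transcripts with a mean FPKM below 5, for 23.9% from 5 to 50 and for 12.6% from 50 upwards.

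eIF2B, the exchange factor that reloads eIF2 with GTP, had half-lives for 4 of its 5 subunits, and these could not be put in an order. *Eif2b3* had 322 and 299 min, and *Eif2b5*, the catalytic subunit, had 344 and 252 min. For *Eif2b2* they were 282 and 201 min and for *Eif2b1* 197 and 259 min. Each range overlapped with the next, and the highest was 1.75 times the lowest in the TAG/+ line and 1.49 times in the TAG/TAG line. Most of the remaining factors differed little between the lines. *Eif1*, *Eif1ad* and *Eif1b* had half-lives from 251 to 316 min. *Eif5*, the GTPase activator of eIF2, had 282 and 287 min, *Eif5b* had 276 and 267 min, and *Eif6*, which keeps the ribosomal subunits apart, had 266 and 255 min. *Eif5a*, which in spite of its name mainly aids elongation at difficult peptide bonds, had 443 and 563 min. The eIF1A genes differed, as *Eif1ax* had 472 and 527 min and *Eif1a* had 115 and 119 min, the second shortest mean after *Eif4a2*.

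Between the lines, half-lives differed by more than 1.5-fold for 3 of the 43 members, against 20.7% of all transcripts. *Eif3e* and *Eif4g3* were shorter lived in the TAG/TAG line, and *Eif2s3y* was longer lived. The median log2 ratio (TAG/TAG over TAG/+) was 0.06 over members and 0.04 over all transcripts. Half-lives of members in the lines had a Spearman's rho of 0.84, and those of all transcripts 0.77.

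In eIF3 and eIF4, the listed RNA levels of the subunits spread more widely than their half-lives, although the measurements do not list the same genes. In the RNA-seq table the FPKM of the 11 listed eIF3 mRNAs ranged over 254-fold in the TAG/+ line and 470.4-fold in the TAG/TAG line. Without *Eif3j1* and *Eif3j2*, whose reads are hard to assign, it ranged over 29.3-fold and 25.8-fold, and in eIF4 without the weakly expressed *Eif4e3* over 30.4-fold and 26.2-fold. At the top, *Eif3h* had 588 in the TAG/+ line and 359 in the TAG/TAG line, and *Eif3g* had 349 and 400.2. *Eif3c*, *Eif3i* and *Eif3k* followed, with 317 and 245, 242 and 246, and 193 and 227, respectively. *Eif3b* had 171 and 135 and overlapped with *Eif3f* at 166 and 119.9. A gap then separated *Eif3m* with 40.3 and 29.7 and *Eif3e* with 20.1 and 15.5. *Eif3e* shares sequence with a pseudogene, as given below. *Eif3j1* and *Eif3j2* were at the bottom, with 2.47 and 0.851 and with 2.31 and 3.19. *Eif3a*, *Eif3d* and *Eif3l* were not in the RNA-seq table used here, nor were *Eif4a2*, *Eif4b* and *Eif4g1*.

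Within eIF4, *Eif4a3* had an FPKM of 399 and 376, *Eif4g2* of 406 and 290.1 and *Eif4a1* of 386 and 151. The cap-binding *Eif4e* stood below them with 151 and 118, followed by *Eif4h* with 66.4 and 52.0 and *Eif4g3* with 47.2 and 40.9. The homologs *Eif4e2* and *Eif4e3* were low, with 13.4 and 14.4 and with 4.12 and 1.29. Among the proteins that hold eIF4E, *Eif4enif1* had 249 and 283, *Eif4ebp1* had 172 and 202 and *Eif4ebp2* had 91.6 and 77.3. Per length, mRNAs of these repressors were thus listed at levels from below to above that of *Eif4e* itself. These levels rest on the gene length used. The deposited FPKM divide by the mean length of all annotated transcripts of a gene, and with the length of the principal coding transcript instead *Eif4g2* had 66.8 and 47.8, *Eif4e* 44.4 and 34.6 and *Eif4a1* 212 and 83.3. All 3 repressors were then above *Eif4e*, with 127 and 144 for *Eif4enif1*, 120.5 and 141 for *Eif4ebp1* and 57.1 and 48.2 for *Eif4ebp2*. In eIF3 the same change put *Eif3h* (332 and 202) at a range that overlapped with those of *Eif3g* (269 and 309), *Eif3k* (217 and 255) and *Eif3i* (232 and 236). *Eif3g* was above *Eif3k* and *Eif3i* in both lines. The spread of levels was also narrower. Without *Eif3j1* and *Eif3j2*, eIF3 reached from 29.9 (*Eif3e*) to 332 (*Eif3h*) in the TAG/+ line. In the TAG/TAG line it reached from 23.1 (*Eif3e*) to 309 (*Eif3g*). Without *Eif4e3*, eIF4 reached from 14.7 (*Eif4e2*) to 212 (*Eif4a1*) in the TAG/+ line. In the TAG/TAG line it reached from 15.8 (*Eif4e2*) to 181 (*Eif4a3*).

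In eIF2 the levels were lower and closer to each other, with FPKM of 26.5 and 18.0 for *Eif2s1*, 31.3 and 30.1 for *Eif2s2* and 35.4 and 43.3 for the X-linked gamma subunit *Eif2s3x*. Its Y-linked copy *Eif2s3y* had 3.46 and 2.01. Without that copy the levels spanned 1.33-fold in the TAG/+ line and 2.41-fold in the TAG/TAG line, beside 1.41-fold and 1.66-fold for the half-lives of *Eif2s1* and *Eif2s2*. With the principal transcript length, *Eif2s2* (34.0 and 32.6) was above *Eif2s3x* (17.7 and 21.7) and *Eif2s1* (14.2 and 9.66). In eIF2B, *Eif2b4* had 189 and 219, *Eif2b1* had 107 and 121 and *Eif2b2* had 72.9 and 84.0. *Eif2b3* was much lower, with 17.8 and 8.07.

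**Figure D3:**
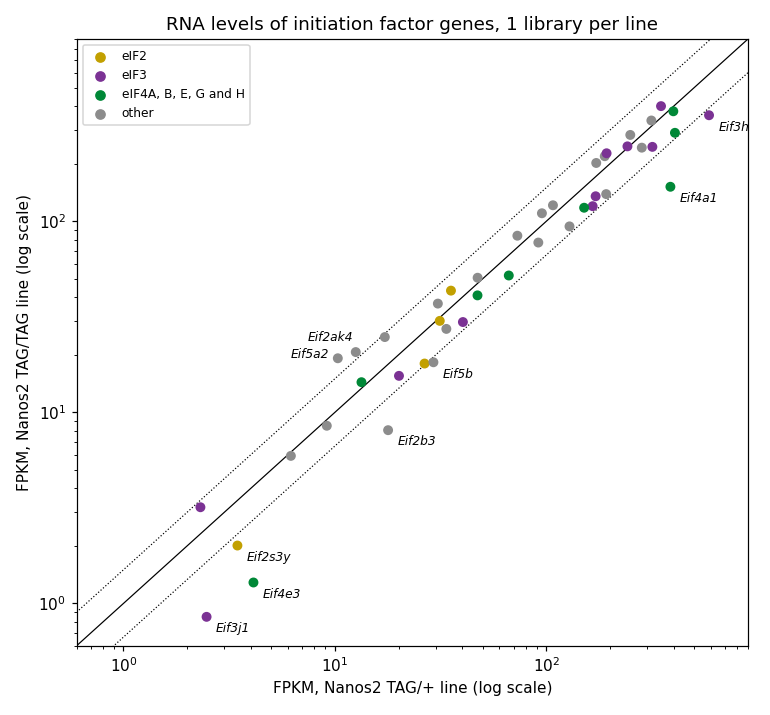
FPKM of the 44 listed initiation factor genes in the TAG/+ line (x axis) and the TAG/TAG line (y axis), both on log scales, with 1 point per gene, a solid line at equal levels and dotted lines at 1.5-fold. Named genes differ by more than 1.5-fold: 7 lie below the lower dotted line, among them *Eif4a1* (386 and 151), and 2 above the upper one.

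FPKM was more than 1.5-fold lower in the TAG/TAG line for 7 of the 44 members, against 19.4% of all genes, and more than 1.5-fold higher for 2, against 22.8%, on the scale of log2(FPKM + 0.1). The median difference on that scale was -0.16 over members and 0.01 over all genes. The 7 lower mRNAs were *Eif2b3*, *Eif2s3y*, *Eif3h*, *Eif3j1*, *Eif4a1*, *Eif4e3* and *Eif5b*, and the 2 higher were *Eif2ak4* and *Eif5a2*. Intervals are given below for the ratio of the libraries (exact 95% binomial interval on the recovered reads), and they cover counting error only.

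*Eif4a1* was the abundant mRNA with the largest difference. It had 4107 reads in the TAG/+ library and 1734 in the TAG/TAG library, a ratio of 0.392 (0.371 to 0.415), whereas its half-life was longer in the TAG/TAG line (500.2 against 368 min). *Eif4a1* shares 25.6% of its 31-base words with the processed pseudogene *Eif4a-ps4*, which was listed at an FPKM of 431 and 344, and 68.9% of its words are in no other gene. With the reads of gene and pseudogene added, the TAG/+ line had 1.59 times the level of the TAG/TAG line, against 2.55 times for *Eif4a1* alone. *Eif3e* behaved in the opposite way. Its own FPKM was 1.29 times higher in the TAG/+ line, but with the reads of *Eif3s6-ps2*, a pseudogene listed at 36.5 and 11.5, the factor was 1.87.

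For *Eif3h* the ratio was 0.610 (0.583 to 0.638), and 70.6% of its words were unique to the gene. *Eif3j1* had 81 and 30 reads, a ratio of 0.344 (0.218 to 0.529). With its copy *Eif3j2* the reads were 141 and 119, a factor of 1.28 between the TAG/+ and the TAG/TAG line. *Eif4e3* (113 and 38 reads) had a ratio of 0.313 (0.210 to 0.455) and *Eif5b*, with FPKM of 29.2 and 18.3, a ratio of 0.625 (0.566 to 0.691). *Eif2s3y* had a ratio of 0.581 (0.355 to 0.936). *Eif2b3* shared almost no sequence with other genes and had 294 and 143 reads, a ratio of 0.452 (0.368 to 0.554), while its half-life differed by 1.08-fold. Of the 28 members with at least 90% unique words, 2 were more than 1.5-fold lower and 2 higher in the TAG/TAG line, against 19.4% and 22.8% of all genes. Their median log2 difference was -0.02. The part of shared sequence in the other differences was not tested.

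**Figure D4:**
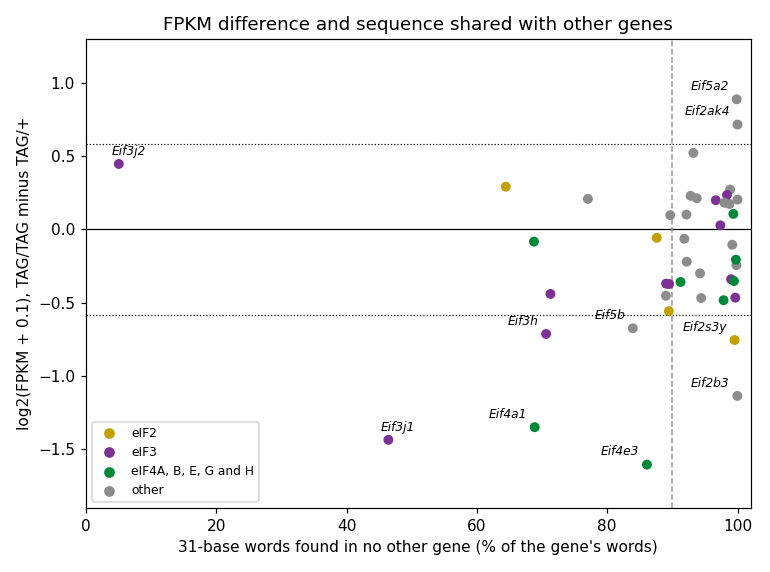
Share of a gene's 31-base words that occur in no other annotated gene, in percent (x axis), and the difference in log2(FPKM + 0.1) between the TAG/TAG and the TAG/+ line (y axis) for the 44 listed initiation factor genes, with dotted lines at 1.5-fold and a dashed line at 90%. Of the 7 named genes below the lower dotted line, 5 lie left of the dashed line, and both genes above the upper one lie to its right.

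The kinases of eIF2 alpha had no half-lives listed, and their RNA levels were low to moderate. *Eif2ak4* (GCN2), the sensor of amino acid shortage, had an FPKM of 12.5 in the TAG/+ line and 20.7 in the TAG/TAG line, a ratio of 1.65 (1.48 to 1.84). *Eif2ak3* (PERK), the sensor of unfolded protein in the endoplasmic reticulum, had 17.2 and 24.8, a ratio of 1.44 (1.26 to 1.65). *Eif2ak1* (HRI), which responds to heme shortage, had 47.3 and 50.6, and *Eif2ak2* (PKR), the sensor of double-stranded RNA, had 6.19 and 5.92. *Eif5a2*, a paralog of *Eif5a*, was listed at an FPKM of 10.3 and 19.2, which rest on 566 and 1132 reads, a ratio of 1.86 (1.68 to 2.06). *Eif5a* itself was far more abundant, with 314 and 337, a ratio of 1.07 (1.03 to 1.12). The other 7 listed members (*Eif1*, *Eif1ax*, *Eif1b*, *Eif5*, *Eif6* and the alternative initiator tRNA factors *Eif2a* and *Eif2d*) ranged from 9.15 for *Eif1ax* to 283 for *Eif1b* in the TAG/+ line, and each differed by less than 1.5-fold.

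Of 24 partners and regulators of initiation outside the family, 20 had an FPKM, with 4 of them more than 1.5-fold lower in the TAG/TAG line, a share close to the 19.4% of all genes, and 1 higher, against 22.8%. The lower ones were the helicases *Ddx3x* (64.5 and 36.6) and *Dhx29* (29.6 and 17.3), the recycling factor *Abce1* (38.1 and 22.5) and the eIF5 mimic *Bzw1* (60.9 and 37.4). *Mcts1*, a reinitiation factor, was higher but rested on 13 and 26 reads. Half-lives were listed for 14 of the 24 and differed by more than 1.5-fold for 3 of them, again close to the share of all transcripts (20.7%). Past this limit they were longer in the TAG/TAG line for *Paip2* (325 and 531 min), an inhibitor of poly(A)-binding protein, and for *Rptor* (61.3 and 196 min), the mTORC1 subunit that recruits eIF4E-binding proteins. They were shorter for *Abce1*, with 243 and 105 min.

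Compared with other parts of the translation machinery, initiation factors had shorter half-lives, by their medians, than cytosolic ribosomal proteins. The 55 ribosomal protein mRNAs with a half-life had medians of 596 min in the TAG/+ line and 608 min in the TAG/TAG line, and all 55 were above the medians of all transcripts in both lines. For 15 cytosolic aminoacyl-tRNA synthetases the medians were 333 and 332 min, and 14 were above in both. eIF3 alone, with 399 and 416 min, lay between these sets. RNA levels differed in another way, since the median log2 difference in FPKM was -0.93 over 75 ribosomal protein genes, -0.15 over 17 synthetases and -0.37 over the 11 eIF3 subunits. These medians are descriptions of 1 library per line, and differences between the sets were not tested. Sequence shared with other genes was counted only for initiation factors. Their median was -0.16 over all 44 and -0.02 over the 28 with at least 90% unique words, so its part in the other sets is unknown.

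**Figure D5:**
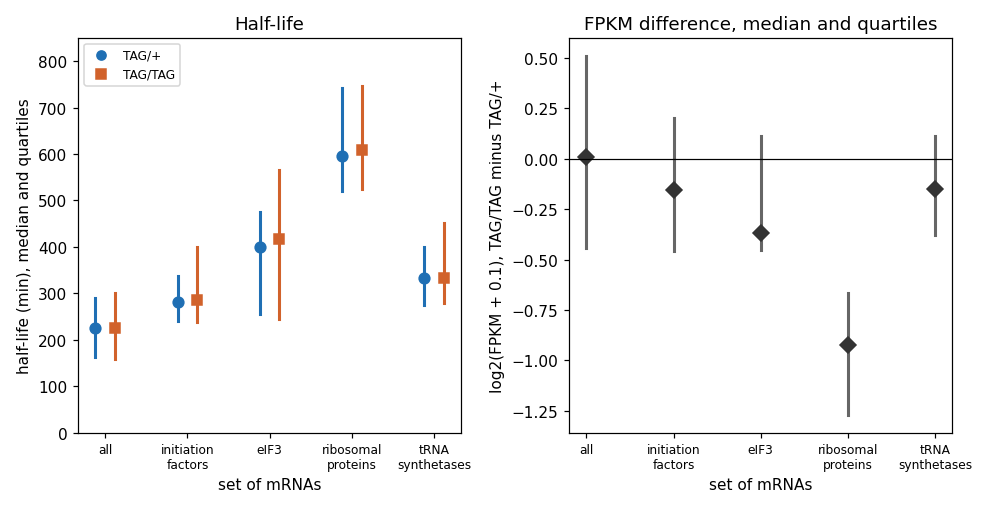
Medians (symbols) and quartiles (bars) of half-life in min in each line (left) and of the difference in log2(FPKM + 0.1) between the TAG/TAG and the TAG/+ line (right) for all genes, initiation factors, eIF3, ribosomal proteins and aminoacyl-tRNA synthetases. Ribosomal protein mRNAs have the longest half-lives (596 and 608 min) and the lowest FPKM difference (-0.93), and initiation factors lie near the synthetases in the right panel (-0.16 and -0.15).

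Of 12 spermatogonial markers, 11 were listed, with summed FPKM of 833 in the TAG/+ line and 1109.9 in the TAG/TAG line. *Id4* was low, with 1.76 and 1.59. *Nanos2* itself had 27.5 and 23.8. *Etv5* (46.0 and 178), *Ret* (73.2 and 181), *Lhx1* (11.6 and 26.1) and *Gfra1* (56.2 and 111) were higher in the TAG/TAG line by more than 1.5-fold. These were 4 of the 11, against 22.8% of all genes. *Nanos2*, *Id4*, *Zbtb16*, *Lin28a* and *Sall4* were lower in that line, each by less than 1.5-fold, and the median log2 difference of the listed markers was 0.09. Markers of differentiating spermatogonia (5 of 5 listed) summed to 241 and 177, most of which was *Sohlh2* (173 and 125). Only *Sohlh1* (16.9 and 10.4) was more than 1.5-fold lower in the TAG/TAG line, 1 of the 5 against 19.4% of all genes. *Dmrtb1* (3.67 and 4.86) was higher, by less than 1.5-fold. Markers of other cell types were also detected, although the cells had been sorted away from feeders. Fibroblast feeder markers (10 of 12 listed, *Acta2* and *Lum* were not) summed to 426 and 626. Single genes ranged from 1.24 to 254 in the TAG/+ line and from 2.98 to 280.1 in the TAG/TAG line. *Fn1* was the highest of them in both lines and differed by less than 1.5-fold. Of the 10, 6 were more than 1.5-fold higher in the TAG/TAG line, against 22.8% of all genes. These were *Col1a1*, *Col6a1*, *Dcn*, *Sparc*, *Vim* and *Thy1* (15.7 and 35.2). Whether RNA of these genes came from feeders or from the SSCs was not tested. Sertoli cell markers (5 of 6 listed, *Amh* was not) summed to 8.19 and 29.7, with most of the difference from *Wt1* (2.51 and 19.6). In the TAG/TAG line 3 of the 5 were more than 1.5-fold higher, against 22.8% of all genes. *Inha* (2.30 and 2.66) and *Cldn11* (0.539 and 0.592) were low and differed by less than 1.5-fold. The part of other cell types in the FPKM differences of initiation factors was not tested. In such bulk RNA, fewer cells of a type and less RNA per cell cannot be told apart.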

How the data were processed

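RNA-seq and SLAM-seq tables of 2 SSC lines were used. The authors deposited FPKM values, 1 library per line, made by the authors with kallisto and DESeq2, per the labels. FPKM times mean transcript length (GENCODE M21) gave whole reads (within 0.01) for 100% of 13884 genes, summing to 10977831 (TAG/+) and 11656606 (TAG/TAG). Lengths were lacking for 20 genes. The half-lives in min, which the authors deposited as other values with no error, were fitted by them with SlamDunk conversion rates and a first-order decay, after technical replicates were collapsed. The build used for these tables is not given in the sources used here. Columns were assigned to lines by name. CRAC libraries were not used here, and the depth of SLAM-seq libraries was not used, so the precision of a half-life is unknown.

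Differences were taken as log2(FPKM + 0.1) and log2 half-life, TAG/TAG minus TAG/+, with 1.5-fold as the limit. The pseudocount understates differences of low genes. Intervals are exact (Clopper-Pearson). The 3′ UTR is that of the principal coding transcript, the longest where several qualified. Reads shared by near-identical genes are split by estimation, so such genes are uncertain, and 31-base words were counted to find them. Members, gene lists and limits were chosen with earlier results of these data known. Full values are given for eIF2, eIF2B, eIF3, eIF4, eIF4E-binding proteins, eIF2 alpha kinases, and members past 1.5-fold or among the 3 highest or lowest. Scripts were tested on simulated data. Analyses used Python 3.11.15, numpy 2.4.6, pandas 2.3.3, scipy 1.17.1 and matplotlib 3.10.9.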

Additional observations from a re-analysis of the deposited data

How the results depend on the processing

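With 1 library and 1 half-life per line, none of the differences has a test. No paired analysis was possible because the tables hold a single value per line. With a pseudocount of 1, among genes whose FPKM reached 1 in each line, after centring on the median of all genes or after rescaling both libraries to the same sum, 6 or 7 of 43 or 44 members were lower and 2 or 3 higher in FPKM in the TAG/TAG line. Of all genes at these settings, 15.7% to 19.8% were lower and 17.4% to 25.2% higher. The median log2 difference of members stayed between -0.16 and -0.08. At 2-fold, 4 were lower and 0 higher in FPKM, against 9.59% and 13.5% of all genes, and 0 half-lives were shorter, against 3.67% of all transcripts. The median half-life of members in the homozygous TAG/TAG line was 293 min among those with FPKM of at least 5. Within single lines, the highest over lowest value of subunits ranged from 3.08 to 4.61 for eIF3 half-life, from 1.62 to 3.23 for eIF2 half-life and from 2.73 to 5.47 for eIF4 half-life. For FPKM it ranged from 254 to 470.4 in eIF3, from 10.2 to 21.6 in eIF2 and from 98.5 to 292 in eIF4, against 285, 14.4 and 143 for the means of the lines. The remaining alternatives were chosen after seeing the data. Of the 28 members with at least 90% unique words, 2 were lower in FPKM, and with pseudogene reads added 8 of 44 were, each against 19.4% of all genes. With FPKM of at least 50 the medians were 294 and 315 min, and 13 of 21 members were above the medians of such transcripts in both lines, against 275 and 283 min and 41.4% over all of these transcripts. Without subunits with a mean FPKM below 5, the highest over lowest mean FPKM was 26.6 in eIF3, 1.77 in eIF2 and 27.9 in eIF4. Without eIF3 the medians were 277 and 275 min, and 21 of 30 members were above in both.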

Other observations

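RNA level and half-life did not go together for all initiation factor mRNAs, as was seen after the values were known. *Eif1ax*, which encodes the scanning factor eIF1A, had an FPKM of 9.15 in the TAG/+ line and 8.51 in the TAG/TAG line, below the medians of all genes, yet half-lives of 472 and 527 min, longer than 94.0% of transcripts in each line. In contrast, 2 of the more abundant members had half-lives only moderately above the medians. *Eif4a3*, of the exon junction complex, had an FPKM of 399 and 376 with half-lives of 295 and 286 min. *Eif4enif1*, the shuttling eIF4E-binding protein, had 249 and 283 with 251 and 264 min. Differences between the lines in level and in half-life were only weakly related, with a Spearman's rho of 0.10 over 33 members and 0.00 over 5152 transcripts, both of which are descriptions across genes with 1 value per line.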
